A study of Mus musculus with 10 samples.

Results

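The genes described here are Insl5 and Ghrl, which encode peptide hormones, and Calcr, Mc3r, Adcyap1r1 and Aplnr, which encode receptors of peptide hormones. Each was read by 1 probe, so the set holds 6 of the 9897 probes with values and 6 of 8738 genes. They were selected on the intensities of these same arrays, which were higher in testis after trichostatin A (TSA) than after the carrier. Their folds against the control, their order among the pools and their slopes over hours are therefore given as a description, without a test. Averaged over the TSA pools they stood at 1.94 (Mc3r) to 3.10 times (Insl5) the control level, and all 8 TSA arrays lay above both control arrays for 6 of the 6 genes, as they did for 22.2% of the tested probes. All 6 passed the filter on dim probes, which leaves out probes with a mean intensity under 0.207.

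The study read testis RNA of male mice (Balb-c, 9 weeks old) given 1 injection under the skin, either of the carrier alone or of the carrier with TSA, an inhibitor of histone deacetylases. Control mice, given dimethylsulfoxide and PBS, were killed at 10 h. The dose of TSA was 60 µg for each mouse, and the mice of the TSA groups were killed 2.5, 5, 7.5 or 10 h after it. Each group held 3 mice whose RNA was pooled before labelling, and each pool was hybridised to 2 arrays, so every group is 1 pool (n = 1) with technical duplicates and differences between mice were not measured. The control matches the 10 h pool in the hour of killing and no other TSA pool. TSA was given to the whole animal, and whole testis was read. More or fewer cells of a type therefore cannot be told apart from more or less RNA per cell. The duplicate arrays of a pool correlated at 0.995 to 0.998 (log2 values across probes). Intensities are unitless, with a median of 1.00 on each array, and are not compared between probes.

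The hormones described here, and those that the receptors bind, are cut from larger precursors. Their receptors lie in the cell membrane and pass the signal to G proteins. Insl5 encodes a member of the insulin and relaxin family that is made by endocrine cells of the colon and acts on the receptor Rxfp4. Ghrl encodes ghrelin, the stomach peptide that acts on the receptor Ghsr to raise appetite and growth hormone release. Calcr (calcitonin, and amylin when joined by a RAMP protein) and Adcyap1r1 (PACAP) belong to the class B receptors and act mainly through cyclic AMP. Mc3r, a receptor of melanocyte-stimulating hormones in the hypothalamus, also raises cyclic AMP, while Aplnr, the apelin receptor of endothelial cells, couples to inhibitory G proteins.

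Shown are the 250 bases before annotated starts of the genes, read from RefSeq (GRCm38.p6), which held 10 windows for 5 of the 6 genes. The genome build of the arrays' annotation was not given in the sources used here, and the start used in testis was not measured. Capitals mark 3 motifs searched on both strands, where a match on the other strand is shown as its reverse complement. The first is the GC box GGGCGG. The second is the TATA box, spelled TATAAA. The third is TGACG, the core of the cyclic AMP response element, and that core also lies within the full element, whose letters are TGACGTCA.
Insl5, outermost start (chr4:103027272-103027521, minus strand): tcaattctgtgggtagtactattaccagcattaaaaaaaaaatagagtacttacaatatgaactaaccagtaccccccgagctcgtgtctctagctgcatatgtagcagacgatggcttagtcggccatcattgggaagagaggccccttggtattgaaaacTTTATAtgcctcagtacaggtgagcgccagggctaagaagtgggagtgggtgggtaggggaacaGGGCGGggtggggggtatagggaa
Insl5, inner start (chr4:103026729-103026978, minus strand): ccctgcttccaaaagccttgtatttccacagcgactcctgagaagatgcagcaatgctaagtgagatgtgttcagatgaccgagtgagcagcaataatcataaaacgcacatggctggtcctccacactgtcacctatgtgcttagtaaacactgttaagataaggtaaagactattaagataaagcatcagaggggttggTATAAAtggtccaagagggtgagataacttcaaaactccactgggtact
Ghrl, outermost start (chr6:113719912-113720161, minus strand): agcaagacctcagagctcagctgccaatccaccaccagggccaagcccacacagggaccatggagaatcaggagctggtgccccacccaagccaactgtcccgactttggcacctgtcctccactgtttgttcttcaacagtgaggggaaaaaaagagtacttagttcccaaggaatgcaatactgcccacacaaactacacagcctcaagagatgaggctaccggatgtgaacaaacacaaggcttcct
Calcr, outermost start (chr6:3764714-3764963, minus strand): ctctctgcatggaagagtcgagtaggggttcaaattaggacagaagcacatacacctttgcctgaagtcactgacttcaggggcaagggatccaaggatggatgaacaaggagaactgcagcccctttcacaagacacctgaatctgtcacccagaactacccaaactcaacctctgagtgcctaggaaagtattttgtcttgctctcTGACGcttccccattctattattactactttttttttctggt
Calcr, inner start (chr6:3763624-3763873, minus strand): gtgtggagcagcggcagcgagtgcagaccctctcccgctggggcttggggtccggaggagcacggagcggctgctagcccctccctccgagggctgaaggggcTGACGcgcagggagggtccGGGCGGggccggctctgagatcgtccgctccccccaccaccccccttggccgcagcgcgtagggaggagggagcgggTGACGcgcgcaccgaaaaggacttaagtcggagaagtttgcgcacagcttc
Mc3r (chr2:172248242-172248491, plus strand): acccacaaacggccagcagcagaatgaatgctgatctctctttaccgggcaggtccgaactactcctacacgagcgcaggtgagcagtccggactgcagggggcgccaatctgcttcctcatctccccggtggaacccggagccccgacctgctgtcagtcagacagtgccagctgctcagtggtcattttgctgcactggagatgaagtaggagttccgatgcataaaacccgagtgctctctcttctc
Adcyap1r1, inner start (chr6:55451728-55451977, plus strand): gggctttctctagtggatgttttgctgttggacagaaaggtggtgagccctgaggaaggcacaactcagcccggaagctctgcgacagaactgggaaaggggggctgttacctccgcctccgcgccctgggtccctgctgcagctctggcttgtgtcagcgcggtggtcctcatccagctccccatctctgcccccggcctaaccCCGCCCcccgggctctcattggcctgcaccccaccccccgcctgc
The windows differed in base composition. The inner Calcr window had 70.8% G and C with 24 CG steps, and that of Adcyap1r1 had 65.6% with 11. The Mc3r window had 57.6% with 12. The 4 Ghrl windows, of which the outermost is shown, had 48 to 52.8%, those of Insl5 48.8% at the outer and 43.6% at the inner start, and the outer Calcr window 46%. Over all 32851 windows of RefSeq the median was 52.4%. A GC box stood in 3 of the 10 windows (outer Insl5, inner Calcr and Adcyap1r1), against 32.7% of all windows, and a TATA box in both Insl5 windows, against 12.4%. The TGACG core stood in both Calcr windows, with 2 copies at the inner start, against 17.8% of all windows, and the full element in 0 of 10, against 1.55%. Ghrl gave 4 of the 10 windows, some of which overlap, so the windows are not separate genes. These matches describe letters in the windows and were tied to no measurement.

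Of the hormones, Insl5 (probe 1176, chromosome 4) read 2.00 and 2.00 on the control arrays, 6.10 and 5.34 at 2.5 h, 5.69 and 5.42 at 5 h, 6.75 and 6.62 at 7.5 h, and 7.54 and 6.46 at 10 h. All 8 TSA arrays lay above both control arrays, and the TSA pools stood at 2.78 to 3.49 times the control level. The mean log2 fold over the 4 TSA pools was 1.63 ± 0.16 (SD over the TSA pools). In rising order the pools stood as control, 5 h, 2.5 h, 7.5 h and 10 h. The arrays at 5 and 2.5 h overlapped, as did those at 7.5 and 10 h, while the arrays at 7.5 and 10 h lay above all arrays at 2.5 and 5 h. The 10 h pool stood 0.29 ± 0.15 log2 units above the 2.5 h pool (SE from duplicate arrays).

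Ghrl (probe 7873, chromosome 6) read 1.63 and 1.82 on the control arrays, 3.74 and 4.25 at 2.5 h, 3.79 and 4.30 at 5 h, 4.76 and 5.08 at 7.5 h, and 4.27 and 4.04 at 10 h. The TSA arrays again lay wholly above the control arrays, and the mean log2 fold was 1.31 ± 0.14. The highest pool was that at 7.5 h, with a log2 fold of 1.51 ± 0.09 (SE from duplicate arrays), and its arrays lay above all others. The 2.5, 5 and 10 h pools overlapped, and the 10 h level differed from the 2.5 h level by 0.06 ± 0.10. Insl5 and Ghrl were the genes of the set that were bright in the control pool, at percentiles of 59 to 62.4 among all probes of the control arrays.

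Of the class B receptors, Adcyap1r1 (probe 147, chromosome 6) read 0.564 and 0.497 on the control arrays, 1.27 and 1.26 at 2.5 h, 1.31 and 1.05 at 5 h, 1.11 and 1.11 at 7.5 h, and 1.44 and 1.30 at 10 h. The mean log2 fold was 1.21 ± 0.13, and both arrays at 10 h lay above those at 2.5 h, and both of these above those at 7.5 h. The 5 h arrays lay apart from each other and overlapped each of the other TSA pools. The control level sat at percentiles of 38.2 to 40.3. Calcr (probe 5612, chromosome 6) read 0.114 and 0.0953 on the control arrays, 0.271 and 0.282 at 2.5 h, 0.235 and 0.363 at 5 h, 0.226 and 0.309 at 7.5 h, and 0.362 and 0.374 at 10 h. Its duplicates lay far apart at 5 and 7.5 h, and the only step between neighbouring pools that exceeded them was that from the control upward. The mean log2 fold was 1.52 ± 0.21, with 1.82 ± 0.13 at 10 h, and the 10 h pool stood 0.41 ± 0.04 above the 2.5 h pool.

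Of the class A receptors, Mc3r (probe 257, chromosome 2) read 0.197 and 0.177 on the control arrays, 0.428 and 0.364 at 2.5 h, 0.371 and 0.307 at 5 h, 0.313 and 0.363 at 7.5 h, and 0.375 and 0.397 at 10 h. It had the lowest mean log2 fold of the 6 genes, 0.96 ± 0.12, with a log2 fold of 0.85 at both 5 and 7.5 h and of 1.04 ± 0.09 at 10 h. At 2.5 h its log2 fold was 1.08 ± 0.14, above that of Aplnr. The 10 h level differed from the 2.5 h level by -0.03 ± 0.12. Aplnr (probe 6611, chromosome 2) read 0.0813 and 0.144 on the control arrays, 0.209 and 0.215 at 2.5 h, 0.208 and 0.208 at 5 h, 0.330 and 0.297 at 7.5 h, and 0.380 and 0.273 at 10 h. Its level was about the same at 2.5 and 5 h and higher at 7.5 and 10 h, with log2 folds of 0.97, 0.95, 1.53 and 1.58, each with an SE of 0.41 to 0.48. Its control arrays lay far apart, and the mean log2 fold of 1.26 ± 0.34 became 0.85 without the first control array and 1.67 without the second.

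**Figure D1:**
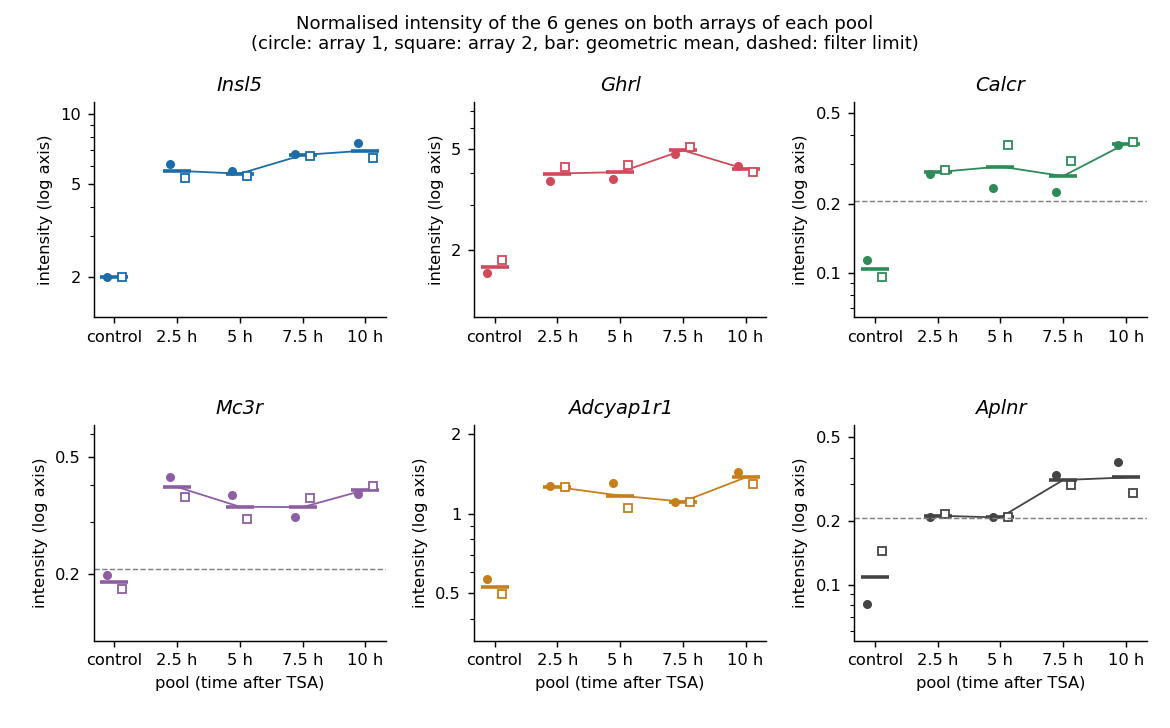
Normalised intensity (log axis) of the 6 genes in the control pool and at 2.5, 5, 7.5 and 10 h after TSA, with a circle and a square for the arrays of a pool, a bar for their geometric mean and a dashed line at the filter limit of 0.207. All TSA arrays lie above both control arrays in each panel, and the control bars of Calcr, Mc3r and Aplnr lie below the dashed line.

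Calcr, Mc3r and Aplnr started near the dim end. Their control levels of 0.104, 0.187 and 0.108 lay under the filter limit of 0.207, at percentiles of 15.9 to 18.1, 22.6 to 23.9 and 13.9 to 20.5 among the probes of the control arrays. In the TSA pools 0 of 24 gene levels were under that limit. The 3 genes passed the filter through their TSA pools, so probes like them had to be higher after TSA to be tested at all: over the 140 tested probes with a control level under the limit the median of the mean log2 fold was 0.61, and 22.1% had a mean log2 fold of at least 1. Without spot flags it cannot be said whether their control values were above background, and the sizes of their folds are uncertain. With an offset of 0.25 added before the logarithm, the mean log2 folds of Calcr, Mc3r and Aplnr were 0.63, 0.49 and 0.50.

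The brighter genes changed less with the offset. Their mean log2 fold with it was 1.52 for Insl5, 1.19 for Ghrl and 0.92 for Adcyap1r1. Among the 2331 tested probes with a control level from 0.207 to 1, where Adcyap1r1 lies, 0.901% had a mean log2 fold of at least 1, and among the 4951 above 1, where Insl5 and Ghrl lie, 0.182% did. Over all 7422 tested probes the median of the mean log2 fold was -0.02. Of these probes 11, Insl5 included, had a mean log2 fold as high as that of Insl5. For Calcr, Ghrl and Mc3r the numbers were 14, 22 and 76. Among the 11 were the liver genes Apoa1, Fabp1, Ahsg, Cyp2e1 and Ttr. Their log2 folds were 5.09 to 8.65 at 5 h and -0.77 to 1.61 at the other times. The shares above also hold such genes, with Fgb, Ahsg, Cyp2e1 and Fabp1 in the first and Apoa2 and Serpina1b in the second.

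**Figure D2:**
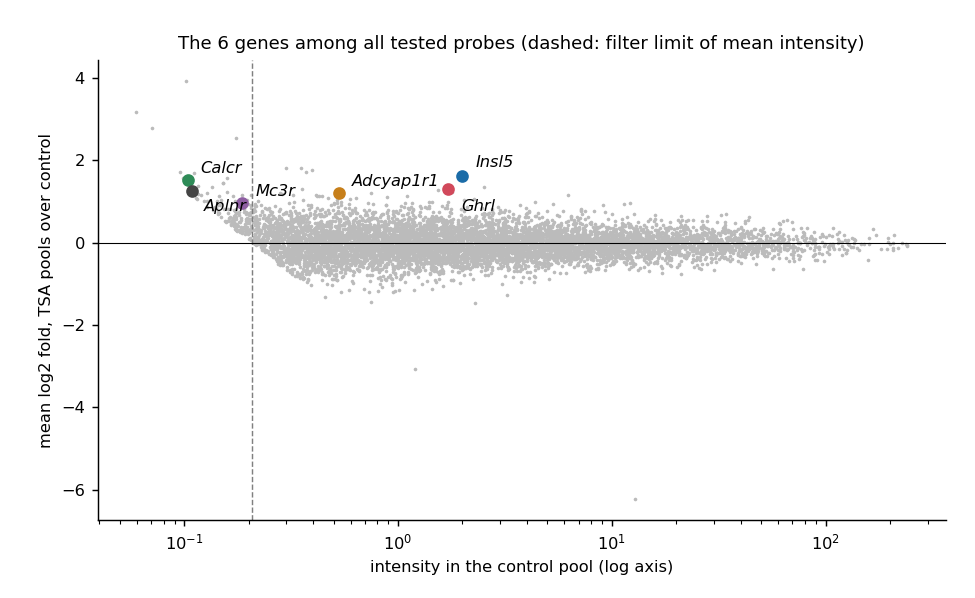
Mean log2 fold of the 4 TSA pools over the control pool against the intensity in the control pool (log axis) for the 7422 tested probes (grey) and the 6 genes (coloured), with a dashed line at 0.207. Calcr, Aplnr and Mc3r lie left of the line, where the filter leaves mainly probes with folds above 0, and Adcyap1r1, Ghrl and Insl5 lie to its right.

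A probe was counted as higher at a time if its log2 fold was at least 1 and both TSA arrays lay above both control arrays. At 2.5 h this held for 5 of the 6 genes, with Aplnr short of it, against 0.674% of tested probes. At 5 h it held for 4 of 6, with Mc3r and Aplnr short of it, against 1.21%. The tested probes include liver genes that were high in the 5 h pool, such as Fabp1 (log2 fold 6.55). At 7.5 h the rule held for 5 of 6, with Mc3r short of it, against 1.01%. At 10 h it held for 6 of 6, against 1.23%. Insl5, Ghrl, Calcr and Adcyap1r1 met it at all 4 times, as did 0.269% of tested probes. With each array centred within bins of probe ID, Adcyap1r1 fell short of the limit at 2.5 h (0.97) and 5 h (0.98) and Mc3r at 2.5 h (0.90) and 10 h (0.88). With the offset Calcr, Mc3r and Aplnr fell short of it at every time and Adcyap1r1 at 2.5, 5 and 7.5 h. With 1 array left out Adcyap1r1 fell to 0.99 at 5 h (without the first array there) and 0.98 at 7.5 h (without the second control array), and Mc3r to 0.96 at 2.5 h (without the first array there) and 0.97 at 10 h (without the second control array). Since these folds chose the genes and share 1 control pool, nothing is read from the counts. Without a limit on size, both TSA arrays lay above both control arrays for 6 of the 6 genes at each time, against 35.5% of tested probes at 2.5 h, 35.8% at 5 h, 36.5% at 7.5 h and 39.8% at 10 h.

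**Figure D3:**
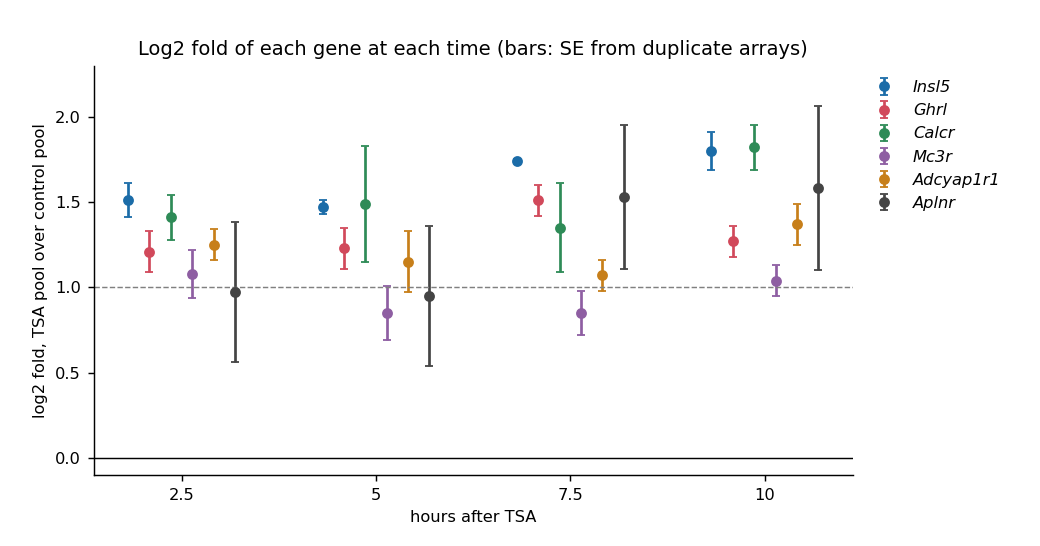
Log2 fold of each gene in the TSA pool over the control pool at 2.5, 5, 7.5 and 10 h, with bars for the standard error from duplicate arrays and a dashed line at the limit of 1. Insl5 and Calcr reach 1.80 and 1.82 at 10 h, Mc3r stays near the line, and Aplnr has the widest bars.

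The course within the TSA pools does not use the control pool. The genes were still chosen on these same TSA arrays, so it is a description and nothing is read from the count. Both 10 h arrays lay above both 2.5 h arrays for 4 of the 6 genes (Insl5, Calcr, Adcyap1r1 and Aplnr), against 37.6% of tested probes. The differences between the 10 h and 2.5 h pools ran from -0.03 ± 0.12 in Mc3r to 0.60 ± 0.24 log2 units in Aplnr. With 1 pool a time there is no test between them. The slopes over hours do use the control, set at 0 h although those mice were killed at 10 h. In log2 units per hour they were 0.1533 ± 0.0429 for Insl5, 0.1485 ± 0.0266 for Aplnr and 0.1432 ± 0.0415 for Calcr (limma, SE). Those of Ghrl, Adcyap1r1 and Mc3r were 0.1138 ± 0.0394, 0.1023 ± 0.0380 and 0.0744 ± 0.0336. These slopes hold the step from the control to the TSA pools, as Mc3r has one although its 10 h level was not above its 2.5 h level.

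The likeness of the genes was measured as the root mean square difference over the 4 log2 folds, which holds their mean level as well as their course. It was 0.205 between Insl5 and Calcr and 0.232 between Ghrl and Adcyap1r1, against 0.698 between Insl5 and Mc3r, whose mean log2 folds were 1.63 and 0.96. Among all tested probes with a symbol, those nearest to Insl5 were Icosl (0.154), S100a14 (0.168) and Prorsd1 (0.203), and those nearest to Ghrl were Col16a1 (0.136), Zmynd8 (0.162) and Laptm5 (0.174). Calcr lay nearest to Rnd3 (0.156), Barx1 (0.167) and Cyp2g1 (0.181), all with control levels of 0.107 to 0.151. Mc3r lay nearest to Lamb2 (0.0522), Cxcr4 (0.0986) and Cst7 (0.101). Adcyap1r1 lay nearest to Pla2g1b (0.0662), Zic2 (0.107) and Lif (0.112), and Aplnr to Atp2a1 (0.10), Gabrd (0.104) and Barx2 (0.164). These distances use 5 pools that share the control. The nearest distances of Aplnr were under the SE of its folds (0.41 to 0.48, from duplicate arrays), and the SE of Calcr reached 0.34 at 5 h. Those of Mc3r and Adcyap1r1 were no larger than the range of their SE, which was 0.09 to 0.16 and 0.09 to 0.18. The nearest probes of Aplnr, Calcr, Mc3r and Adcyap1r1 are therefore not resolved.

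The other genes of the hormone systems were taken from lists and tested with limma on the 5 pool means, with the TSA pools against the control pool. Of the 52 genes in the lists of the relaxin, ghrelin, calcitonin, melanocortin, PACAP and apelin systems 27 were measured and 17 tested, and without the 6 genes 11 were tested. Of these 11, 0 were called in either direction by limma, against 2.74% of tested probes called higher and 0.795% called lower, and 5 had an unadjusted p under 0.05, all on the higher side, as 28.3% of tested probes had in either direction. Their median mean log2 fold was 0.26, with a range from -0.26 to 0.72. The receptors Rxfp4 and Ghsr, which bind the Insl5 and Ghrl peptides, the ligand genes Apln, Apela and Calca, and the ghrelin-acylating enzyme gene Mboat4 were not measured.

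Of the tested ligands outside the 6 genes, Iapp, which encodes amylin, had the highest mean log2 fold, reading 1.11, 1.19, 1.18 and 1.52 after 2.5, 5, 7.5 and 10 h, against 0.753 in the control pool (mean log2 fold 0.72 ± 0.20, limma adjusted p = 0.0739). Pomc, the precursor of the hormones that act on Mc3r, had a mean log2 fold of 0.28 ± 0.07 (limma adjusted p = 0.171). Adcyap1, the PACAP gene and ligand of Adcyap1r1, and its relative Vip were below the filter, with intensities of 0.0522 to 0.102 and 0.0396 to 0.0738 over the TSA pools, against 0.0648 and 0.0592 in the control pool. Of the insulin and relaxin family, Insl6, a gene expressed in male germ cells, read 43.0 to 44.4 over the TSA pools, against 35.9 in the control pool (0.29 ± 0.02, limma adjusted p = 0.134). Igf2 stood at 0.48 ± 0.14 (limma adjusted p = 0.0997) and Igf1 at 0.26 ± 0.27 (limma adjusted p = 0.489). Igf1 read 2.51 at 5 h, apart from 1.70 to 1.78 in the other TSA pools, and Igf2 0.985 at 2.5 h, apart from 0.808 to 0.820. Ghrh, which encodes the hypothalamic releasing hormone of growth hormone, stood at 0.33 ± 0.10 (limma adjusted p = 0.150).

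Among the receptors and their partners, the RAMP genes, whose proteins join Calcr or Calcrl and set their ligands, did not pass the test: Ramp1 stood at -0.02 ± 0.27, Ramp2 at 0.12 ± 0.12 and Ramp3 at -0.20 ± 0.11, with limma adjusted p of 0.363 to 0.963. Crcp, which encodes a protein that couples the receptor of calcitonin gene-related peptide, stood at -0.26 ± 0.10 (limma adjusted p = 0.232), and Ghr, the growth hormone receptor gene, at -0.10 ± 0.14 (limma adjusted p = 0.699). Calcrl, the nearest relative of Calcr, was below the filter at 0.0602 to 0.0914 over the TSA pools, against 0.113 in the control pool. Vipr1, a receptor of VIP and PACAP, read 0.0796 to 0.135, against 0.126. Mc5r, another melanocortin receptor, read 0.0966 to 0.128, against 0.0745, and Rln1, the relaxin gene, 0.113 to 0.162, against 0.0578, both below the filter. Of the remaining measured genes, Gh, Calcb and Adm read at most 0.0783 in any pool, and Atrn, a partner of melanocortin signalling, 0.139 to 0.209 over the TSA pools, against 0.185 in the control pool, and none of them passed the filter.

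**Figure D4:**
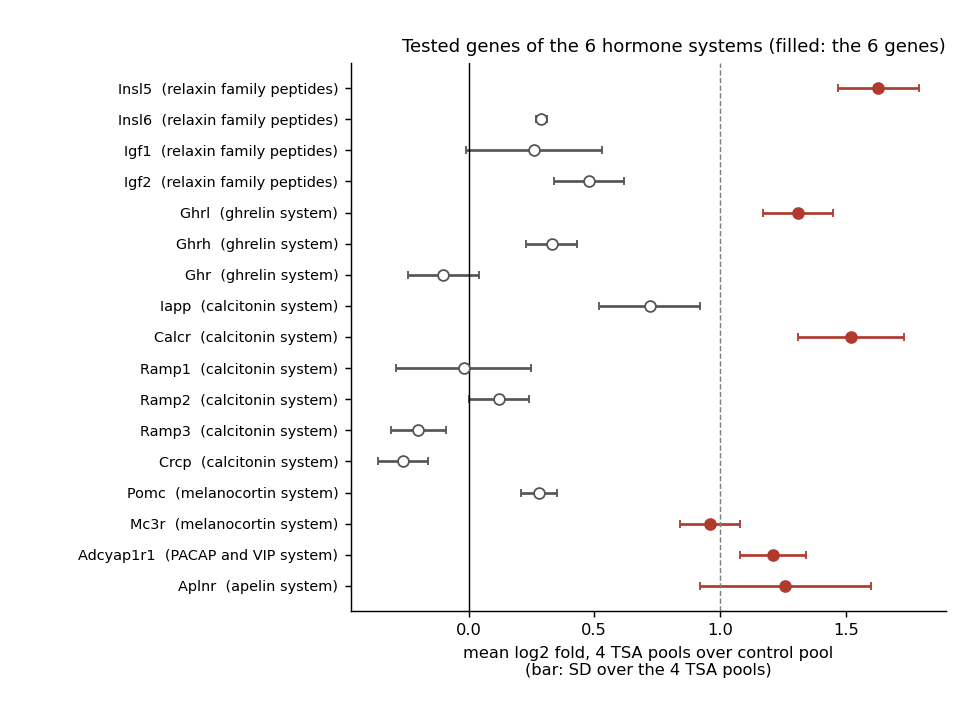
Mean log2 fold of the 4 TSA pools over the control pool for the 17 tested genes of the hormone systems, with bars for the SD over the 4 TSA pools, filled points for the 6 genes that were chosen for their folds and open points for the rest. The open points run from -0.26 for Crcp to 0.72 for Iapp, left of the dashed line at 1.

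Over all lists of peptide hormones and receptors 98 of 169 genes were measured and 46 tested. Without the 6 genes, 33 of 40 had a mean log2 fold above 0, against 47.9% of tested probes, and their median was 0.27, against -0.02 over all tested probes. Limma called 2 of the 40 genes higher and 0 lower, against 2.74% and 0.795% of tested probes. An unadjusted p under 0.05 was reached by 19, of which 18 were on the higher side. Of tested probes 28.3% had such a p in either direction, and no share by side is given here. The lists were chosen with earlier results of these data known, so nothing is read from these counts. Oprd1, the delta opioid receptor gene, read 0.651, 0.610, 0.683 and 0.754 after 2.5, 5, 7.5 and 10 h, against 0.383 in the control pool. Its TSA pools stood 0.81 ± 0.14 log2 units above the control pool (limma SE, adjusted p = 0.0474, higher in 4 of 4 TSA pools). Npy2r, a receptor of neuropeptide Y, read 2.60, 2.50, 2.84 and 2.89, against 1.73, and stood 0.65 ± 0.13 above the control pool (limma SE, adjusted p = 0.0485, higher in 4 of 4). All 4 TSA pools share 1 control pool, so 4 of 4 is not a set of separate comparisons. The fit also took the 4 times as replicates. Both calls were close to the limit and ended under other settings, that of Oprd1 in 12 of 20 (adjusted p up to 0.125) and that of Npy2r in 14 of 21 (up to 0.125). The limma trend over hours called 0 of the 40 (14 at an unadjusted p under 0.05, against 25.1% of tested probes), against 0.35% rising and 1.66% falling among tested probes.

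By list, the median without the 6 genes was 0.36 for gut and islet peptides (4 tested), 0.28 for hypothalamic and pituitary peptides (10), 0.40 for class A receptors (16) and 0.0059 for class B receptors (2). Of the brighter genes, Pnoc, the precursor of nociceptin, stood at 0.36 ± 0.09, Penk, the enkephalin precursor, at 0.25 ± 0.08, Sct, the secretin gene, at 0.37 ± 0.10, Nmb, the neuromedin B gene, at 0.13 ± 0.08 and Ntsr1, a neurotensin receptor gene, at 0.19 ± 0.12, with limma adjusted p of 0.124 to 0.530. By control level, the median of the 40 genes was 0.41 over 4 genes with a control level under 0.207, 0.24 over 22 genes up to 1 and 0.26 over 14 genes above 1.

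The lists of genes that make and carry the signals held genes on either side of the control, as those of cyclic AMP signalling ran from -0.65 to 0.49. Of 7 tested genes of hormone processing and secretion, 17 of cyclic AMP signalling and 16 of Gi, Gq and arrestin signalling 0 passed either limma test, with medians of 0.08, -0.11 and 0.01. At an unadjusted p under 0.05 there were 3, 9 and 4 of these genes against the control, where 28.3% of tested probes were, and 1, 6 and 5 in the trend, where 25.1% were. Furin, a convertase of precursors, stood at 0.21 ± 0.11, Cpe, the carboxypeptidase of hormone granules, at -0.02 ± 0.13 and Ide, the insulin-degrading enzyme, at -0.33 ± 0.11. Of the cyclic AMP genes, Pde4a stood at 0.33 ± 0.09 and Pde8a, both genes of phosphodiesterases that break down cyclic AMP, at -0.39 ± 0.07, while Akap1, an anchor of protein kinase A, stood at 0.35 ± 0.12 and its regulatory subunit Prkar1a at 0.26 ± 0.10. Grk4, a kinase that silences active receptors, stood at -0.50 ± 0.07 (limma adjusted p = 0.0622), Gnai2 and Gna11, genes of G protein subunits, at 0.23 ± 0.34 and 0.09 ± 0.21, and Rgs2, a regulator of G proteins, at -0.20 ± 0.13.

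Markers showed testis RNA in every pool: Ldhc of spermatocytes and spermatids read 211 to 219 over the TSA pools, against 195 in the control pool, and Cyp17a1 of Leydig cells 87.7 to 104, against 85.9. The median mean log2 fold was -0.06 for 15 germ cell genes, -0.07 for 12 Sertoli and peritubular genes, 0.09 for 7 Leydig cell genes and -0.06 for 4 blood genes. For the cell types in which the 6 genes are best known it was 0.16 for 7 endothelial genes without Aplnr, 0.61 for 3 enteroendocrine and islet genes and 0.51 for 8 nerve and brain genes. The summed intensity of the enteroendocrine list was 3.07 to 3.45 over the TSA pools, against 2.25 in the control pool. That of the nerve list was 6.34 to 7.23, against 5.62, and that of the endothelial list 5.96 to 6.70, against 5.10. A sum follows its brightest probes and is no measure of the cells. Within the enteroendocrine sum of the control pool, Pax4 read 1.01 and Chga 0.567. Of the 16 enteroendocrine and islet markers 12 were measured and 3 passed the filter, of the 16 nerve markers 11 and 8, and of the 14 endothelial markers 12 and 8 with Aplnr. The endothelial markers Pecam1 and Cdh5 read 0.0403 and 0.0616 in the control pool and did not pass the filter. Of the measured markers 6 of 12 enteroendocrine, 6 of 11 nerve and 5 of 11 endothelial genes (without Aplnr) stood above the control in all 4 TSA pools, against 29.4% of all probes with values. Of the 9 enteroendocrine and islet markers below the filter 3 did so, among them Neurod1 and Pax6, factors of these cells. Neurod1 read 0.0762 to 0.105 over the TSA pools, against 0.050 in the control pool, and Pax6 0.101 to 0.226, against 0.0485. Insm1 and Neurog3, also below the filter, did not stand above the control in every TSA pool. They read 0.0397 to 0.0486, against 0.0475, and 0.0389 to 0.0807, against 0.0593. Of the nerve list Gfap and S100b, both genes of glia, stood 0.75 ± 0.13 and 0.64 ± 0.12 above the control pool (limma SE, adjusted p = 0.0474 for both). They were 2 of 8 tested nerve genes, against 2.74% of tested probes called higher, and these calls ended in 12 and 13 of 20 other settings. The 8 genes ran from -0.44 (Gad2) to 0.75. Mog, a further gene of glia, was below the filter and read 0.0364 to 0.0554 over the TSA pools, against 0.110 in the control pool. By the trend over hours 1 germ cell gene, Tex101, fell (limma adjusted p = 0.0387). The liver list summed to 225 at 5 h, against 15.1 in the control pool, and to 14.6 to 18.4 in the other TSA pools. At 5 h the 6 genes had log2 folds of 0.85 to 1.49, against 0.85 to 1.82 at the other times. The part of other cell types in the levels of the 6 genes was not tested.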

How the data were processed

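Testis RNA of 5 pools of 3 mice was read on 10 CodeLink 1-channel arrays (Cy5), with 2 arrays a pool. The deposited values are normalised intensity on a linear scale, and the sorted values of the 10 arrays were identical, so they had been quantile normalised before deposit. The program, the background correction and the spot flags were not given in the sources used here. Of 10012 probes 115 had no values. Symbols came from the platform table, updated by gene identifier for 8975 probes (8983 with 1 symbol, 1 with several, 1028 with none). Values under the 5th percentile (0.0364) were raised to it, log2 was taken, arrays were shifted to a common median and the dimmest 25% of probes by mean log2 were dropped, so that 7422 probes of 6573 genes were tested. Tests used limma 3.58.1 (R 4.3.3) on the 5 pool means with p-values adjusted over the 7422 probes by Benjamini-Hochberg and a limit of 0.05. The fit had 3 residual degrees of freedom and assumed the same spread for the lone control pool. The methods were tested on simulated data. Arrays have no counting depth, and their number limits the precision.

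The 6 genes and the gene lists were chosen with earlier results of these data known. Named were the 6 genes, the measured genes of their hormone systems, any list gene that passed a limma test, and up to 4 genes per other list of largest mean fold among probes brighter than the median of tested probes (1.99). Of the 6 genes, 3 nearest neighbours each were named by the root mean square difference of their 4 log2 folds. Outside these rules, Ldhc and Cyp17a1 were named as checks of testis RNA. Other cell type markers were named as examples, without a rule: Pecam1, Cdh5, Neurod1, Pax6, Insm1, Neurog3, Pax4, Chga, Mog, Gad2 and the liver genes. A gene with several probes was represented by its brightest. Alternatives were an offset of 0.25, no floor, no shift, no filter or a filter on the dimmest 50%, centring within 50 bins of probe ID, other fold limits, eBayes with trend and robust, fits on the 10 arrays, and arrays or pools left out. Figures were drawn with matplotlib 3.10.9.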

Additional observations from a re-analysis of the deposited data

Results flagged for a closer look

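Among the 17 tested genes of the hormone systems, 3 had 1 TSA pool far from the others. Chance flags about 5% of groups of 4. Insl6 read 43.0 at 7.5 h, against 44.2 to 44.4 in the other TSA pools, a difference that is small beside its level. Igf1 read 2.51 at 5 h, against 1.70 to 1.78 at the other times, in the pool whose liver markers summed to 225. The part of liver RNA in this value was not tested. Igf2 read 0.985 at 2.5 h, against 0.808 to 0.820 at the other times.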

How the results depend on the processing

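The mean fold and the folds by time of the 6 genes stayed above 0 in 300 of 300 recomputed values, and 57 of them moved by more than the spread of 1 array. An offset before the logarithm gave mean log2 folds of 1.52 for Insl5, 1.19 for Ghrl, 0.63 for Calcr, 0.49 for Mc3r, 0.92 for Adcyap1r1 and 0.50 for Aplnr. Centring within bins of probe ID gave 1.51 for Insl5 and 1.02 for Adcyap1r1. With single arrays left out the mean fold ran from 1.60 to 1.66 for Insl5, 1.23 to 1.39 for Ghrl, 1.39 to 1.64 for Calcr, 0.88 to 1.03 for Mc3r, 1.12 to 1.30 for Adcyap1r1 and 0.85 to 1.67 for Aplnr. The probes counted as higher numbered 50, 90, 75 and 91 at 2.5, 5, 7.5 and 10 h. They numbered 128, 221, 268 and 204 with no filter, 13, 22, 30 and 35 with the lowest 50% left out, and 12, 47, 20 and 25 with the offset. A 1.5-fold limit gave 391, 390, 469 and 637, a 3-fold limit 7, 38, 10 and 12. With single arrays left out the ranges were 51 to 63, 92 to 100, 85 to 94 and 104 to 121.

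The limma test of TSA pools against control called 262 probes: 1 with no filter, 573 with the lowest 50% left out, 420 with the offset, 795 with eBayes with trend and robust, 1044 with the pool as a random block, and 3, 3, 6 and 7 without the 2.5, 5, 7.5 or 10 h pool. Single arrays left out gave 5 (without the second array at 2.5 h) to 496 (without the second control array). The trend called 149: 0 with no filter (1863 at unadjusted p under 0.05), 239 after centring within bins of probe ID, 289 with trend and robust, 719 with the random block, 0, 41, 29 and 0 without the 2.5, 5, 7.5 or 10 h pool (2126, 1670, 1493 and 1190 unadjusted), and 41 to 193 with single arrays left out. At unadjusted p under 0.05 there were 2103 probes for the first test and 1866 for the trend. Array numbers did not pair arrays across pools, as their deviations within pools correlated at -0.187 to 0.140 in the 10 comparisons between pools. A replicate block on the 10 arrays, which counts technical arrays as samples, called 2388 and 2111. The causes of these moves were not tested. The number of arrays and the missing measure of background limit what can be said of dim probes.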
